A study of Homo sapiens with 7 samples.

Results

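The cytosolic ribosomal proteins are the protein parts of the ribosome that translates nuclear-encoded messages, and their genes are compared here by subunit. Members were taken by symbol alone. A member is named RPL or RPS followed by digits and at most 1 further letter (A, X or L), or is RPLP0, RPLP1, RPLP2 or RPSA. This found 78 of the 14647 rows of the deposited table, 47 of the large subunit and 31 of the small. Enough counts for the test were present for 74 of them, 44 large-subunit and 30 small-subunit genes, while RPL10L, RPL17, RPL41 and RPS10L were too low.

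All libraries came from A549 cells, an established human cell line with epithelial features, grown from a lung adenocarcinoma. In 4 libraries, numbered 4 to 7, cyclic stretch had been applied over 24 h, with 15% elongation and a rate of 15 cycles per min. In 3 libraries, numbered 1 to 3, they had been given 100 nM doxorubicin over 24 h, a drug that traps topoisomerase II on DNA and so causes breaks. Both groups were stained for β-galactosidase, a marker of senescent cells, after 6 days, and RNA was taken from the sorted positive cells of each. Both groups are therefore treated and selected, and no untreated cells were analysed here, so lower in stretch also means higher in doxorubicin. Whether the libraries of a group were grown separately is not said in the labels. A p-value here thus covers the spread among the libraries alone, and that spread may be technical.

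A ribosome has a small subunit, which binds the message and reads its codons, and a large subunit, which joins the amino acids and through whose tunnel the new chain leaves. Each subunit is built in the nucleolus on ribosomal RNA, and most of its proteins are needed in equal number, so cells make them together. Most of these messages begin with a C followed by a run of C and T letters, the terminal oligopyrimidine tract, through which the kinase mTOR and the RNA-binding protein LARP1 control their translation. Many of the genes also carry in their introns small nucleolar RNAs (snoRNAs), which guide chemical changes of ribosomal RNA. H/ACA snoRNAs guide the conversion of uridine to pseudouridine, and C/D snoRNAs guide methylation.

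The large and small subunits had nearly the same median difference between stretch and doxorubicin. The median log2 fold change, stretch minus doxorubicin, was -0.46 over the 44 large-subunit genes and -0.47 over the 30 small-subunit genes, against 0.02 over all 11230 genes tested. Without doxorubicin library 1 the medians were further apart, at -0.27 and -0.045. That common direction rested on the scaling and on doxorubicin libraries 1 and 2. It turned when libraries were scaled by their totals alone (medians 0.41 and 0.35, beside a median of all genes of 0.71), and when doxorubicin library 3 stood alone against stretch (0.25 and 0.21). Past the test, 5 of the 74 genes differed, beside 2.32% of all genes tested. RPS2, RPL10 and RPL23 were among the 4 lower in stretch, and RPL8 was higher. With any 1 of the stretch libraries left out, 0 of the 74 were called, beside 0.109% to 0.359% of all genes. RPS2, RPL10 and RPL23 carry H/ACA snoRNAs in their introns.

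Expression was counted with an Ion AmpliSeq panel, in which PCR primers pick 1 short amplicon per gene, so counts of different genes are not compared with each other as abundance. Libraries held 5636386 to 7419778 counts in stretch and 2611739 to 4644250 in doxorubicin. EIF4A2, a translation initiation factor, took 1.67% to 2.87% of the counts of a stretch library and 10.8% to 30.6% of those of a doxorubicin library. TMM factors, the scaling of edgeR, ran from 1.25 to 1.33 in stretch, and were 0.73, 0.443 and 1.14 in doxorubicin libraries 1, 2 and 3. The part of depth, of EIF4A2 and of these factors in the differences below was not tested. Values are given as CPM, counts scaled to a common library size after TMM. All 9 A549 and epithelial markers were in the table, with sums of 4510 to 5970 CPM in stretch and 4640 to 6580 CPM in doxorubicin. Single markers differed, with KRT18 called lower in stretch (log2 fold change -2.20, edgeR adjusted p = 0.0199) and INSL4 (2.20, 0.0336) and APOH (2.26, 0.0255) called higher. Summed endothelial markers (1 of 3 in the table) reached at most 0.963 CPM in stretch and were at 0 in doxorubicin. Fibroblast markers (3 of 4) summed to 5.08 to 8.39 CPM in stretch and 8.88 to 15.6 CPM in doxorubicin, and leukocyte markers (2 of 4, LYZ and CD14) to 38.7 to 41 CPM in stretch and 26.8 to 53.5 CPM in doxorubicin. Their part in the results was not tested.

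The quasi-likelihood test of edgeR, adjusted by Benjamini and Hochberg's method over all tested genes, called 261 of the 11230 genes (2.32%), of which 40 were higher (0.356%) and 221 lower in stretch (1.97%). Of the 44 large-subunit genes it called 1 higher and 3 lower, and of the 30 small-subunit genes 0 higher and 1 lower. At an unadjusted p under 0.05 the counts were 14 and 7, beside 23.2% of all genes. DESeq2 called 10 and 2, beside 11.6% of all genes, and limma-voom 3 and 1, beside 1.66%. The CPM of stretch and doxorubicin libraries did not overlap for 9 large-subunit genes (4 higher, 5 lower in stretch) and 3 small-subunit genes (0 higher, 3 lower), beside 11.5% of all genes that were higher and 9.88% that were lower without overlap.

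**Figure D1:**
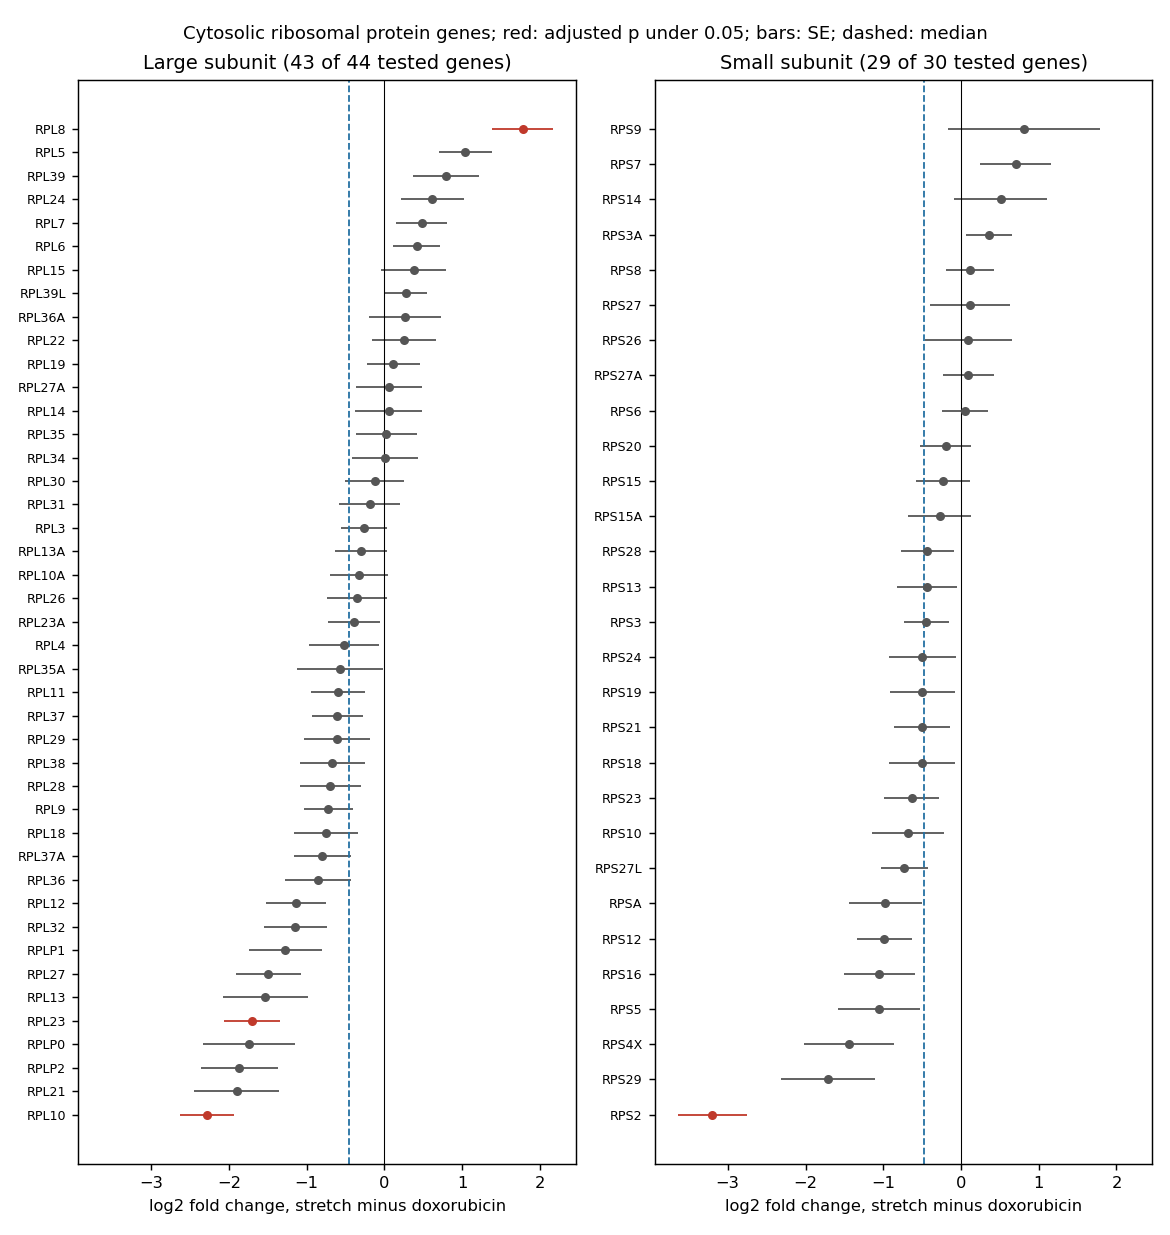
Log2 fold change (stretch minus doxorubicin, x axis) of ribosomal protein genes, with its standard error as a bar, for the large subunit (left, 43 of 44 tested genes shown) and the small subunit (right, 29 of 30 shown). Genes with an adjusted p under 0.05 are red and dashed lines mark the medians over all tested members of -0.46 and -0.47, whose sign turns under library totals alone and with doxorubicin library 3 alone.

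RPS2 encodes a small-subunit protein at the channel through which the message enters. It had 6912, 5418, 5043 and 6837 CPM in stretch libraries 4 to 7, against 38562, 95603 and 32299 CPM in doxorubicin libraries 1 to 3. The groups stood well apart, and doxorubicin library 2 was the highest. The means were 6052 ± 962 CPM in stretch (SD, n = 4) and 55488 ± 34882 CPM in doxorubicin (SD, n = 3). In edgeR the log2 fold change was -3.20 (SE 0.45, adjusted p = 0.0112), so RPS2 fell in stretch relative to doxorubicin.

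RPL10 encodes a protein that joins the large subunit late, in the cytoplasm, close to where transfer RNAs bind. Stretch libraries 4 to 7 had 3256, 3003, 2667 and 3940 CPM of RPL10, and doxorubicin libraries 1 to 3 had 12079, 21573 and 13077 CPM. There was no overlap. The difference was -2.28 on the log2 scale (SE 0.35, edgeR adjusted p = 0.0147).

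RPL23 encodes a protein of the face at which the subunits meet and is also known as a binding partner of the p53 regulator MDM2. Its values were 3945, 3461, 3838 and 4213 CPM in stretch libraries 4 to 7 and 7921, 18588 and 11119 CPM in doxorubicin libraries 1 to 3. The stretch values lay close together, at 3864 ± 312 CPM (SD, n = 4), and all below the doxorubicin mean of 12543 ± 5474 CPM (SD, n = 3). The log2 fold change was -1.70 (SE 0.36, edgeR adjusted p = 0.0383).

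RPL8 encodes a large-subunit protein next to the site of peptide bond formation. It was the one member called in the other direction, with 115, 250, 230 and 342 CPM in stretch libraries 4 to 7 and 62.3, 62.3 and 79.6 CPM in doxorubicin libraries 1 to 3. Stretch library 4 was the lowest of its group and still above all of doxorubicin. The log2 fold change was 1.78 (SE 0.39, edgeR adjusted p = 0.0446), and RPL8 was not called by limma-voom (adjusted p = 0.0534).

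**Figure D2:**
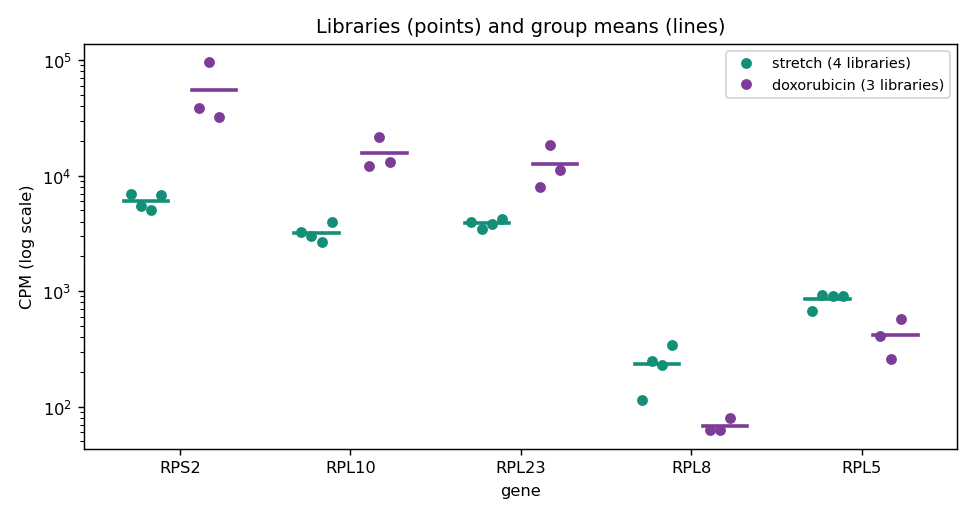
CPM (log axis) of RPS2, RPL10, RPL23, RPL8 and RPL5 in each library, with stretch (4 libraries, green) left of doxorubicin (3 libraries, purple) and a line at each group mean. RPS2, RPL10 and RPL23 lie lower in stretch than in doxorubicin without overlap, and RPL8 and RPL5 lie higher.

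The number of calls depended on which library was left out. Without stretch library 4, 5, 6 or 7, edgeR called 0 of the 74 genes each time, beside 0.359%, 0.146%, 0.109% and 0.109% of all genes. In these 4 fits 16 or 17 members had an unadjusted p under 0.05, and the edgeR adjusted p of RPS2 ran from 0.0529 to 0.0974. The share of all genes at that unadjusted p is not given for these fits, and was 23.2% with all libraries. Without doxorubicin library 1, RPL10 and RPS2 were called, beside 0.197% of all genes. Without doxorubicin library 2, 3 genes were called, RPL10 and RPS2 among them, beside 2.47%. Without doxorubicin library 3, 32 of the 74 genes were called, beside 32.2% of all genes. The log2 fold changes themselves varied less across these 7 fits, from -3.44 to -2.54 for RPS2, -2.42 to -1.96 for RPL10, -1.93 to -1.29 for RPL23 and 1.54 to 2 for RPL8.

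RPS2, RPL10 and RPL23 share H/ACA snoRNA genes in their introns. One from each host is shown as annotated on GRCh38 in GENCODE 29, in RNA sense and DNA letters, with capitals on the ACA box near the end after which the class is named. SNORA64 lies in RPS2 (chr16:1962973-1963106, minus strand), SNORA70 in RPL10 (chrX:154400281-154400415, plus strand) and SNORA21 in RPL23 (chr17:38852863-38852994, minus strand).
SNORA64: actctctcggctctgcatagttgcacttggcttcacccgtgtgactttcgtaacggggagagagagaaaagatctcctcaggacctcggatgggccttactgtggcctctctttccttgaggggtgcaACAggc
SNORA70: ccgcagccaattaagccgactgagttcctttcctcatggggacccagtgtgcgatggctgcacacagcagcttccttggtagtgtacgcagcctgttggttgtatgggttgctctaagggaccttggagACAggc
SNORA21: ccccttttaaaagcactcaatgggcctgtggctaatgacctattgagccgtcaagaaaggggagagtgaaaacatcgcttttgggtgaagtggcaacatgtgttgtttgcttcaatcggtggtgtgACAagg

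The letters ACA stood 3 bases from the end in 112 of 147 annotated H/ACA genes (76.2%) and in 4 of 278 C/D genes (1.44%). RPS2 also holds SNORA10, and RPL23 also holds SNORA21B. The amplified part of each gene is not given in the sources used here, so whether it lies near these introns was not tested.

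The tested members were split by the snoRNAs in their introns, a split chosen after their values were seen. The 14 genes with an H/ACA snoRNA had a median log2 fold change of -1.14, with 4 called lower by edgeR and 0 higher. Of all genes, 1.97% were called lower and 0.356% higher. That median was -0.17 with doxorubicin library 3 alone, -0.30 under library totals alone and -0.71 scaled to the ribosomal proteins, and from -1.46 to -0.99 with 1 library left out. Under library totals alone 1 of them was called, and 1 scaled to the ribosomal proteins, beside 0.116% and 0.196% of all genes. With 1 library left out 0 to 10 were called. The 10 came without doxorubicin library 3, where 32.2% of all genes were called. The 12 genes with C/D snoRNAs only had a median of -0.41 and 0 calls, and the 48 genes with neither had a median of -0.39 and 1 call, RPL8. At an unadjusted p under 0.05 stood 10, 2 and 9 genes of these classes, beside 23.2% of all genes. DESeq2 called 8, 0 and 4, beside 11.6% of all genes, and limma-voom 4, 0 and 0, beside 1.66%. Of the 14 H/ACA hosts, 6 were lower in stretch without overlap, among them RPL10, RPL21, RPL23, RPLP2 and RPS2, and 1 was higher, RPL5. Of all genes, 9.88% were lower and 11.5% higher without overlap. The hosts whose groups overlapped are RPL12, RPL27A, RPL30, RPL32, RPL39, RPS12 and RPSA. Among tested genes that are no ribosomal protein, 5 of 59 H/ACA hosts were called lower and 0 higher, with a median of -0.10, and 1 of 32 C/D-only hosts was called, with a median of 0.02.

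Within each library, the median gene-centred log2 CPM of the 14 H/ACA hosts was set against that of the other 60 tested members. The difference was -0.22, -0.43, -0.54 and -0.24 in stretch libraries 4 to 7 and 0.24, 0.98 and 0.13 in doxorubicin libraries 1 to 3. These are the same values that led to the split, shown by library, and are a description only. EIF4A2 and TAF1D, which host H/ACA snoRNAs as well, were lower in stretch, by log2 fold changes of -4.21 (edgeR adjusted p = 0.0147) and -2.43 (edgeR adjusted p = 0.0244). Both were chosen with their values known, from 59 tested H/ACA hosts that are no ribosomal protein. Of these 59, 32 lay on the doxorubicin side, and 9 were lower and 4 higher in stretch without overlap. Leaving EIF4A2 and TAF1D out of the table left the same 5 members called.

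**Figure D3:**
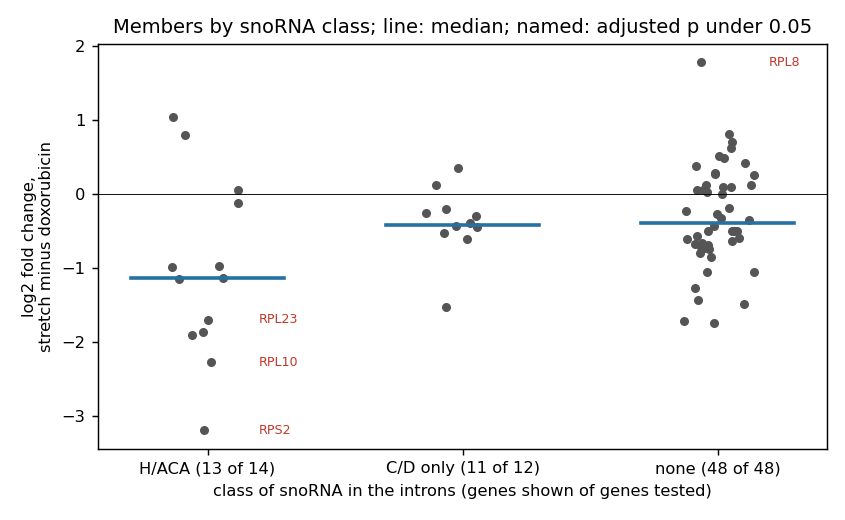
Log2 fold change (stretch minus doxorubicin, y axis) of the members, grouped by the class of snoRNA in their introns (x axis, genes shown of genes tested in brackets), with a line at the median over all tested genes and the called genes shown named. The H/ACA hosts have a median of -1.14, with RPS2, RPL10 and RPL23 called lower, against medians of -0.41 for C/D only and -0.39 for neither.

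To compare the subunits within each library, each gene's log2 CPM was centred on its mean over the 7 libraries. The medians depend on the TMM factors, and the large-minus-small difference does not. The large-subunit medians were -0.36, -0.07, -0.07 and -0.17 in stretch libraries 4 to 7 and 0.59, 0.41 and -0.33 in doxorubicin libraries 1 to 3. For the small subunit they were -0.26, -0.08, -0.02 and -0.09 in stretch and 0.75, 0.38 and -0.32 in doxorubicin. With TMM scaling both subunits were high in doxorubicin libraries 1 and 2, and in doxorubicin library 3 the large subunit lay just above its lowest stretch library and the small subunit below it.

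The large-minus-small difference within a library was -0.11, 0.01, -0.05 and -0.08 in stretch and -0.16, 0.03 and -0.01 in doxorubicin. It averaged -0.06 ± 0.05 in stretch (SD, n = 4) and -0.05 ± 0.10 in doxorubicin (SD, n = 3), and the groups overlapped throughout. The stretch mean minus the doxorubicin mean was -0.01, smaller than either SD. Using means over members in place of medians gave -0.13, summed counts gave 0.06, and members without H/ACA snoRNAs gave -0.02. Each of these values was smaller than the SD among the doxorubicin libraries for the same measure. Leaving out 1 library moved the difference of medians between -0.07 (without doxorubicin library 1) and 0.03 (without stretch library 7), and at -0.07 it exceeded the SDs of 0.05 in stretch and 0.0097 in doxorubicin.

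**Figure D4:**
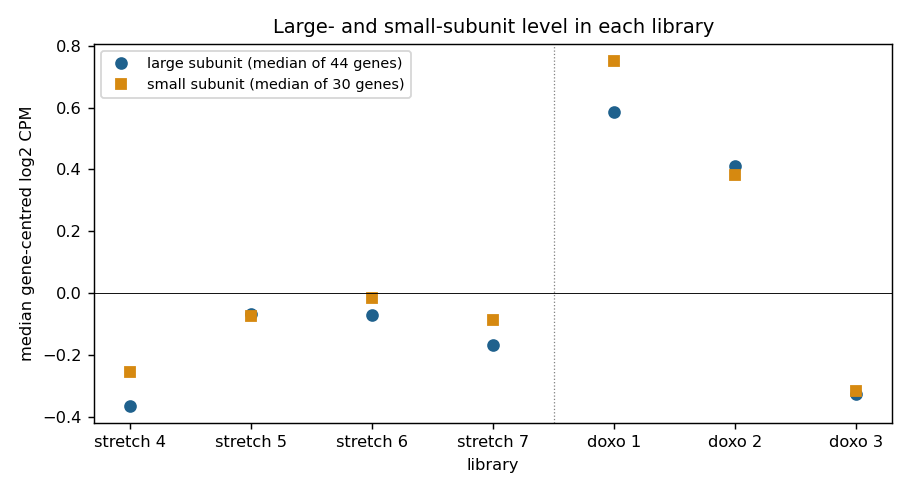
Median gene-centred log2 CPM (y axis) of the large subunit (44 genes, circles) and small subunit (30 genes, squares) in each library, stretch 4 to 7 on the left and doxorubicin 1 to 3 on the right. The symbols lie close together in every library, while doxorubicin libraries 1 and 2 lie above stretch and doxorubicin library 3 does not.

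The same holds gene by gene. Of the 44 large-subunit genes, 29 had their value on the doxorubicin side, with quartiles of -0.92 and 0.07. Of the 30 small-subunit genes, 21 did, with quartiles of -0.84 and 0.08. Doxorubicin libraries 1 and 2 were both above all stretch libraries for 23 large-subunit and 15 small-subunit genes. Doxorubicin library 3 was above all stretch libraries for 7 and 5 genes, within their range for 19 and 13, and below all of them for 18 and 12. Among the 12 genes for which it was above are RPL10, RPL21, RPL23, RPL31, RPL37, RPLP2, RPS2, RPS24, RPS27L, RPS3 and RPSA. The share of all tested genes in these positions is not given, so these counts are no result about the members.

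The stalk is the flexible arm of the large subunit that recruits translation factors, with RPLP0 as its base and RPLP1 and RPLP2 as its dimers. RPLP0 had 7276, 12333, 10746 and 11496 CPM in stretch libraries 4 to 7 and 29621, 67815 and 7418 CPM in doxorubicin libraries 1 to 3. RPLP1 had 5554, 8720, 8360 and 9053 CPM in stretch and 19422, 31277 and 6825 CPM in doxorubicin. For both, libraries 1 and 2 of doxorubicin were high and library 3 lay inside the stretch range. RPLP2 had 6435, 5389, 7224 and 4445 CPM in stretch and 17896, 38718 and 7481 CPM in doxorubicin, without overlap. The log2 fold changes were -1.74 for RPLP0 (edgeR adjusted p = 0.121), -1.28 for RPLP1 (0.143) and -1.86 for RPLP2 (0.0687). None of the 3 passed in edgeR or limma-voom, beside 2.32% and 1.66% of all genes. All 3 had an unadjusted p under 0.05, beside 23.2% of all genes, and DESeq2 called 2, beside 11.6%. With doxorubicin library 3 alone the values turned to 0.51 for RPLP0 and 0.23 for RPLP1.

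The starts of these genes were read from RefSeq promoters on GRCh38.p14, which matched 62 of the 78 members. A run of at least 8 C or T letters on the sense strand that touched the 5 bases either side of the start was found in 43 of them (69.4%), 25 of 38 large-subunit genes (65.8%) and 18 of 24 small-subunit genes (75%), against 11.2% of 35116 promoters. As a mirror, a run of A or G letters was found in 0 of the 62 members and in 8.29% of all promoters. Shown are 30 bases around the annotated start of the 3 stalk genes, with the run in capitals, and of RPL10, whose annotated start has none. They lie at chr12:120201097-120201126 (minus strand) for RPLP0, chr15:69452803-69452832 (plus) for RPLP1, chr11:809952-809981 (plus) for RPLP2 and chrX:154398050-154398079 (plus) for RPL10.
RPLP0: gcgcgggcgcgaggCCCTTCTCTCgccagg
RPLP1: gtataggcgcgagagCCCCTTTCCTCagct
RPLP2: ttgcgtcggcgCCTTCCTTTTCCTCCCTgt
RPL10: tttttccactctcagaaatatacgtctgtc

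RPL5 and RPL11 form a particle with 5S ribosomal RNA, which, when free, binds MDM2. RPL5 had 679, 918, 908 and 905 CPM in stretch libraries 4 to 7 and 409, 259 and 572 CPM in doxorubicin libraries 1 to 3, higher in stretch without overlap. RPL11 had 8265, 5077, 6748 and 4047 CPM in stretch and 10393, 9651 and 7278 CPM in doxorubicin, and the groups overlapped through stretch library 4. The log2 fold change was 1.04 for RPL5 (SE 0.34, edgeR adjusted p = 0.113) and -0.59 for RPL11 (SE 0.35, edgeR adjusted p = 0.326). Neither passed in edgeR or limma-voom. RPL5, which DESeq2 called, hosts an H/ACA snoRNA and a C/D snoRNA, and RPL11 hosts neither.

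Among other large-subunit genes, RPL21 had the lowest log2 fold change of those not called. It had 309, 140, 100 and 513 CPM in stretch and 580, 1386 and 1010 CPM in doxorubicin, without overlap (log2 fold change -1.90, edgeR adjusted p = 0.0805). Pseudogene copies of RPL21 held 96.3% as many counts as RPL21 itself, so its value is uncertain. RPL6 had copies at 62.5% and RPL23A at 4.99% of its own counts, and for the other members with copies in the table the share was at most 0.693%.

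RPL27 had 3117, 2112, 3146 and 2011 CPM in stretch and 8713, 10051 and 3143 CPM in doxorubicin (log2 fold change -1.49, edgeR adjusted p = 0.078). RPL13 had 851, 1536, 1233 and 1275 CPM in stretch and 4419, 5444 and 734 CPM in doxorubicin (log2 fold change -1.53, edgeR adjusted p = 0.135). For RPL13 the third doxorubicin library was the lowest of all 7, and for RPL27 it lay just inside the stretch range. RPL3, beside the catalytic centre, was at -0.26 (edgeR adjusted p = 0.614) and RPL4, which lines the tunnel, at -0.52 (0.503). RPL39, a short protein of the tunnel, had 828, 1740, 1719 and 2138 CPM in stretch and 1361, 544 and 876 CPM in doxorubicin, with overlap (0.79, edgeR adjusted p = 0.278). The 7 tested genes of the tunnel and its rim had a median of -0.19, from -0.52 to 0.79. None of them was called by edgeR, DESeq2 or limma-voom, beside 2.32%, 11.6% and 1.66% of all genes. At an unadjusted p under 0.05 stood 0, beside 23.2% of all genes.

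In yeast, the counterparts of RPL10, RPL24 and RPLP0 join the large subunit in the cytoplasm. They did not share a direction. RPL24 had 239, 251, 316 and 259 CPM in stretch and 244, 70 and 205 CPM in doxorubicin, with stretch library 4 inside the doxorubicin range (log2 fold change 0.62, edgeR adjusted p = 0.376), while RPL10 and RPLP0 were at -2.28 and -1.74. RPL6 and RPL7 were higher in stretch without overlap but close, at 527 to 632 CPM in stretch and 307 to 509 CPM in doxorubicin for RPL6, and 2499 to 3129 CPM in stretch and 1273 to 2440 CPM in doxorubicin for RPL7. Their log2 fold changes were 0.42 (edgeR adjusted p = 0.416) and 0.48 (0.395).

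In the small subunit, the head, which swivels as the message is moved along, was set against the rest. Of its 12 tested genes 11 lay on the doxorubicin side, with a median of -0.50, and of the other 18 small-subunit genes 10 did, with a median of -0.36. No gene of the head was called by edgeR or limma-voom, beside 2.32% and 1.66% of all genes. In the head 3 had an unadjusted p under 0.05, beside 23.2% of all genes, and DESeq2 called 1, beside 11.6%. RPS29, a zinc-binding protein of the head, was the lowest after RPS2, with 12.5, 36.9, 38.2 and 32.9 CPM in stretch and 125, 156 and 19.3 CPM in doxorubicin. Doxorubicin library 3 lay inside the stretch range, and the log2 fold change of -1.71 (SE 0.60, edgeR adjusted p = 0.131) turned to 0.66 with that library alone.

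RPS3, a head protein at the message entry that is also known to act in DNA repair, had 3067, 2988, 2975 and 3441 CPM in stretch and 3944, 4912 and 3873 CPM in doxorubicin. The ranges did not overlap, but the difference was small, at -0.44 on the log2 scale (SE 0.29, edgeR adjusted p = 0.369). RPSA, which is also known as a laminin receptor, had 669, 492, 289 and 862 CPM in stretch and 528, 1069 and 1807 CPM in doxorubicin. It was one of the few genes with its highest value in doxorubicin library 3 (log2 fold change -0.97, edgeR adjusted p = 0.238). RPS4X had 2974, 4879, 5495 and 4791 CPM in stretch and 11773, 22601 and 2541 CPM in doxorubicin (-1.44, edgeR adjusted p = 0.168), with doxorubicin library 3 the lowest of all.

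RPS12, of the beak of the head, had 1547, 1495, 1413 and 1330 CPM in stretch and 3523, 3596 and 1478 CPM in doxorubicin (log2 fold change -0.99, edgeR adjusted p = 0.136). In RPS12 the first and second doxorubicin libraries were high and the third lay inside the stretch range. RPS6, the target of the S6 kinases, had 2776, 2163, 2413 and 1985 CPM in stretch and 2649, 2283 and 1831 CPM in doxorubicin, and the groups overlapped (0.05, edgeR adjusted p = 0.935). RPS27A, made as a fusion with ubiquitin, was at 0.09 (edgeR adjusted p = 0.886), RPS15 at -0.23 (0.716) and RPS28 at -0.43 (0.455).

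The highest small-subunit values came from genes with few counts or an empty library. RPS9 had 167, 252, 273 and 312 CPM in stretch and 311, 0 and 117 CPM in doxorubicin, so doxorubicin library 2 held no count, where 3 counts would be 2.59 CPM (log2 fold change 0.81, SE 0.98, edgeR adjusted p = 0.64). RPS7 had 7.21, 4.17, 5.51 and 7.42 CPM in stretch and 2.78, 1.73 and 5.48 CPM in doxorubicin (0.71, edgeR adjusted p = 0.367). RPS14 had 18.2, 10.5, 5.73 and 9.25 CPM in stretch and 3.97, 1.73 and 14.6 CPM in doxorubicin (0.51, edgeR adjusted p = 0.627). RPS7 and RPS14 are low for the panel, on which 48 of the 74 members averaged over 1000 CPM and 8 under 20 CPM. For RPS7 and RPS14 a difference could not be resolved at this depth. RPS9 is not low in the other libraries, and why doxorubicin library 2 held no count was not tested.

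Several members have a second copy or a close relative. RPS27L, which is known as a target of p53, had 17.2, 14.9, 14.9 and 12.4 CPM in stretch and 23, 32 and 19.8 CPM in doxorubicin, lower in stretch without overlap (log2 fold change -0.73, SE 0.31, edgeR adjusted p = 0.185). Its relative RPS27 had 246, 887, 663 and 958 CPM in stretch and 1080, 483 and 342 CPM in doxorubicin, with full overlap (0.12, edgeR adjusted p = 0.91). RPL39L was at 0.28 (edgeR adjusted p = 0.546) beside 0.79 for RPL39. RPL22, at 0.25 (edgeR adjusted p = 0.734), and its relative RPL22L1, at -0.39 (0.719), were not told apart from 0, nor was RPL36A (0.27, edgeR adjusted p = 0.757). How counts were shared between such copies was not tested, and RPL3L was not analysed here.

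RPL10L, a copy of RPL10 active in the testis, had 0, 0.107, 0 and 0 CPM in stretch and 1.59, 0.865 and 0.378 CPM in doxorubicin, near or under the level of 3 counts (0.321 to 0.401 CPM in stretch, 0.567 to 2.59 CPM in doxorubicin). RPL41 had at most 0.935 CPM in stretch and 2.59 CPM in doxorubicin, and RPL17 at most 1.34 CPM in stretch and 5.16 CPM in doxorubicin. None of these was tested.

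Ribosomal proteins that fall outside the naming rule (7 of 7 tested) had a median log2 fold change of -0.39. None was called by edgeR, DESeq2 or limma-voom, beside 2.32%, 11.6% and 1.66% of all genes. At an unadjusted p under 0.05 stood 0 of the 7, beside 23.2% of all genes. FAU, a fusion of a ubiquitin-like part with a small-subunit protein, had 873, 1227, 1084 and 1164 CPM in stretch and 2856, 2199 and 801 CPM in doxorubicin (-0.84, edgeR adjusted p = 0.24). Its first and second doxorubicin libraries were high and the third lay below the stretch range. RPL26L1 and RPL7L1 were at 0.38 (edgeR adjusted p = 0.464) and 0.62 (0.304).

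Outside the ribosome, 16 tested genes have messages known to carry a terminal oligopyrimidine tract. Of these, edgeR called 1 higher in stretch and 0 lower, beside 0.356% and 1.97% of all genes. With any 1 stretch library left out edgeR called 0, beside 0.109% to 0.359% of all genes. At an unadjusted p under 0.05 stood 3, beside 23.2% of all genes, and DESeq2 called 2, beside 11.6%. Their median was -0.18, from -0.35 to 0.27 with 1 library left out and 0.49 with doxorubicin library 3 alone. The gene called by edgeR was EIF4B, an initiation factor that aids the unwinding of messages. EIF4B had 40.1, 39.3, 47.5 and 47.7 CPM in stretch and 7.15, 8.65 and 19.1 CPM in doxorubicin. It rose in stretch relative to doxorubicin by 1.85 on the log2 scale (SE 0.38, edgeR adjusted p = 0.0361). TPT1 was on the other side, with 1320, 778, 1061 and 1072 CPM in stretch and 3390, 2790 and 1470 CPM in doxorubicin (-1.27, edgeR adjusted p = 0.078).

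Of 28 tested large-subunit assembly factors 22 lay on the stretch side, with a median of 0.36, and of 44 tested small-subunit assembly factors 34 did, with a median of 0.41. With doxorubicin library 3 alone these medians were -0.025 and 0.067, and with 1 library left out they ran from 0.13 to 0.99 and from 0.19 to 0.76. edgeR and limma-voom called 0 of each, beside 2.32% and 1.66% of all genes. At an unadjusted p under 0.05 stood 6 and 11, beside 23.2% of all genes, and DESeq2 called 4 and 2, beside 11.6%. PES1, a large-subunit assembly factor, was at 1.51 (edgeR adjusted p = 0.0675) and GNL2, a nucleolar GTPase, at -0.97 (0.0916). UTP18 and WDR46, of the small-subunit processome, were at 0.94 (edgeR adjusted p = 0.109) and -1.21 (0.131).

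The 14 tested genes of RNA polymerase I, which makes ribosomal RNA, and its factors had a median of 0.05. At an unadjusted p under 0.05 stood 2 of them, beside 23.2% of all genes. Of the 14, edgeR called 1, beside 2.32% of all genes. It was TAF1D, a subunit of the promoter factor SL1, with 7464, 10893, 12153 and 9652 CPM in stretch and 36607, 93158 and 32453 CPM in doxorubicin. ZNRD1, a subunit of the polymerase, was at 1.67 (edgeR adjusted p = 0.132). The 12 proteins of the snoRNA particles and the nucleolus had a median of 0.28. They had 0 calls in edgeR and limma-voom, beside 2.32% and 1.66% of all genes. Among them 5 had an unadjusted p under 0.05, beside 23.2% of all genes, and DESeq2 called 2, beside 11.6%. NOP56, of the C/D particle, was at -0.98 (edgeR adjusted p = 0.0837) and DKC1, the pseudouridine synthase of the H/ACA particle, at -1.08 (0.114). Of 10 tested genes that escort or survey free ribosomal proteins, edgeR and limma-voom called 0, beside 2.32% and 1.66% of all genes. DESeq2 called 1 of them, beside 11.6% of all genes. Among the 10, 2 had an unadjusted p under 0.05, beside 23.2% of all genes. Their median was 0.70, from 0.51 to 1.09 with 1 library left out and 0.099 with doxorubicin library 3 alone. HUWE1, a ubiquitin ligase, was at -1.51 (edgeR adjusted p = 0.0719) and MDM4, an inhibitor of p53, at 0.81 (0.209).

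As a share of all counts, the members took 19.2%, 22%, 22.4% and 22% of stretch libraries 4 to 7 and 27.4%, 24.2% and 22.2% of doxorubicin libraries 1 to 3. The 95% Wilson intervals were at most 0.055 percentage points to either side, which covers counting error only, since PCR reads without molecular identifiers are not independent molecules. The mean share was 21.4 ± 1.48% in stretch (SD, n = 4) and 24.6 ± 2.62% in doxorubicin (SD, n = 3), and the ranges overlapped through doxorubicin library 3. The large subunit took 11.4% to 13.2% of the counts in stretch and 12.6% to 15.8% in doxorubicin, and the small subunit 7.76% to 9.21% in stretch and 9.6% to 11.6% in doxorubicin. These ranges overlapped for the large subunit and not for the small. With EIF4A2 and TAF1D taken out of the total, the mean shares became 22.2% in stretch and 32.3% in doxorubicin. By library they were then 20%, 22.8%, 23.1% and 22.8% in stretch and 33.8%, 37.1% and 26% in doxorubicin, without overlap. Fewer cells with a message and less of it per cell cannot be told apart in such bulk libraries.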

How the data were processed

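Gene expression of sorted A549 cells was compared in 4 stretch and 3 doxorubicin libraries, grouped by sample title. The authors deposited a table of estimated counts per gene, held as whole numbers with no scaling between libraries. The tools used were fastp 0.20.1 and Salmon 1.9, with GRCh38, per the submitters' processing notes. Rows of 65 repeated symbols were summed and a row naming no gene was left out, which left 14535 genes. Totals per library were 2611739 to 7419778 counts.

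Genes were kept with filterByExpr, scaled by TMM and tested with edgeR 4.0.16 in R 4.3.3 by a robust quasi-likelihood fit (glmQLFit, glmQLFTest). Fold changes are stretch minus doxorubicin on the log2 scale. The p-values of all 11230 tested genes were adjusted by Benjamini and Hochberg's method, and genes under 0.05 were called. SE was derived from the fold change and F. Log2 CPM used a prior count of 2. The test was also run on simulated counts that gave each gene the same relative spread in both groups. That run does not cover a spread that differs between the groups, and its outcome is not given. DESeq2 1.42.0, limma-voom (limma 3.58.1), other scalings and filters, and leaving out each library were alternatives. Members had no set test, and medians and counts over them are descriptions. snoRNA hosts are genes of GENCODE 29 with a snoRNA gene inside an intron on the same strand.

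The members, gene lists, structural groups and classes were chosen with earlier results of these data known. Genes named are those with a fixed role (stalk, 5S particle, sites, close relatives), the 5 lowest p-values and the 2 highest and 2 lowest fold changes of each subunit, and 2 genes of each other list. RPL6, RPL7, RPL13, RPL21, RPL24, RPL27 and EIF4A2 were added after their values were seen. Results of some genes are not reported here.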

Additional observations from a re-analysis of the deposited data

Results flagged for a closer look

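RPL5 in stretch library 4 stood apart from the rest of its group. It had 679 CPM there, against 905 to 918 CPM in the other 3 stretch libraries, a gap wide enough against the range of the group to pass Dixon's 95% critical value for 4 samples. The value was still above the highest doxorubicin library, at 572 CPM. Of 45 named genes this was 1, and chance alone marks about 1 in 20 groups.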

How the results depend on the processing

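No paired analysis was possible because the groups share no replicate number. Under RLE and upper-quartile factors, no filter, EIF4A2 and TAF1D left out, or repeated symbols left out, the same 5 members were called. Where a value below moved or turned, the cause was not tested. Of 261 genes called, 4 were large-subunit and 1 small-subunit. DESeq2 called 1302, 10 and 2, and limma-voom with quality weights 5276, 26 and 17. A mean of at least 10 CPM left 143 genes. Library totals alone left 13 genes and 0 large-subunit members, with 17 of 74 members at an unadjusted p under 0.05. Scaling to the ribosomal proteins, chosen after seeing the data, left 22 and 0, with 12 of 74 at an unadjusted p under 0.05. RPS2 was still called in both. The share of all genes at that unadjusted p is not given for either scaling, and was 23.2% in the main fit. These counts are therefore no result about the members. Doxorubicin library 3 alone against stretch, whose spread is assumed to be that of stretch, called 99 genes, among them RPS2, RPL10 and RPL23. Leaving out 1 library gave 12 to 3736 genes, 0 to 20 large-subunit and 0 to 12 small-subunit members. The median of all genes was 0.71 under library totals alone, 0.34 scaled to the ribosomal proteins and 0.15 without doxorubicin library 3.

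With doxorubicin library 3 alone, log2 medians turned to 0.25 (large subunit), 0.21 (small), 0.30 (proteins outside the naming rule), 0.49 (other oligopyrimidine genes), -0.025 (large-subunit assembly) and -0.074 (snoRNA particles), and genes to 0.46 (FAU), -0.079 (RPL22), 0.031 (RPL3), 0.80 (RPL4), 0.51 (RPLP0), 0.23 (RPLP1), -0.41 (RPS14), 0.56 (RPS15), -0.069 (RPS27A), 0.19 (RPS28), 0.66 (RPS29) and 0.85 (RPS4X). With library totals alone they turned to 0.41 (large), 0.35 (small), 0.32 (outside the rule), 0.73 (oligopyrimidine), 0.07 (FAU), 0.21 (RPL11), 0.092 (RPL22L1), 0.56 (RPL3), 0.51 (RPL4), 0.65 (RPS15), 0.088 (RPS27L), 0.36 (RPS28) and 0.34 (RPS3). Quality weights gave -0.25 (RPL22), -0.29 (RPL36A), -0.33 (RPS27), -0.13 (RPS27A), -0.23 (RPS6) and 0.087 (oligopyrimidine). Scaling to the ribosomal proteins gave -0.016 (large), 0.018 (small), 0.12 (RPL3), 0.24 (RPS15), 0.044 (RPS28) and 0.24 (oligopyrimidine). That scaling sets each library by the median of the members themselves. Subunit medians near 0 therefore follow from the scaling and are no result about the members.

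Leaving out 1 library moved the small-subunit median between -0.58 and -0.045, proteins outside the rule between -0.65 and 0.27, oligopyrimidine genes between -0.35 and 0.27, RPL22 between -0.06 and 0.50, RPL22L1 between -0.83 and 0.27, RPL36A between -0.11 and 0.995, RPL4 between -0.87 and 0.084, RPS27 between -0.16 and 0.75, RPS27A between -0.16 and 0.31 and RPS6 between -0.047 and 0.19. The large-minus-small difference was -0.13 with means over members, and the share of counts differed by -10.1 percentage points without EIF4A2 and TAF1D in the total, against -3.23. Depth limits members under 20 CPM, where doxorubicin library 2 resolves 2.59 CPM at 3 counts.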
